A study of Homo sapiens with 12 samples.

Results

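A group of 5 short noncoding RNAs made by RNA polymerase III were followed across Arid5a immunoprecipitates: the RNA subunits of RNase P and RNase MRP, 7SK RNA, and the 7SL RNAs of the genes RN7SL1 and RN7SL2. Their rows were taken by Ensembl identifier, which gave 8 of the 60708 features in the deposited tables. Of these, 7 had a count in at least 1 library, and ENSG00000277027, the second identifier of RNase MRP RNA, was listed at 0 in all 12 libraries. The remaining 7 were ENSG00000277209 and ENSG00000259001 for RNase P RNA, ENSG00000269900 for RNase MRP RNA, ENSG00000283293 and ENSG00000202198 for 7SK RNA, ENSG00000276168 for 7SL1 and ENSG00000274012 for 7SL2. The tables do not pair identifiers with names, so these names are those given to the Ensembl identifiers when the RNAs were selected. The RNAs were selected on the IL-17 over medium values of these same libraries, in which ENSG00000277209 was a leading feature. All IL-17 values are therefore given as a description, without a test.

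RNase P is the ribonucleoprotein enzyme that removes the 5′ leader of precursor tRNAs, and the related RNase MRP cuts precursor ribosomal RNA. 7SK RNA is the scaffold of a nuclear particle that, with HEXIM proteins, LARP7 and MEPCE, holds the transcription elongation factor P-TEFb inactive. 7SL RNA is the RNA of the signal recognition particle, which directs ribosomes making secreted and membrane proteins to the endoplasmic reticulum. All these RNAs are abundant, highly structured and bound by proteins, and they are common constituents of the background in RNA immunoprecipitation.

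The libraries came from HK2, an established human proximal tubule epithelial cell line. In every group the cells had received 10 µg of a plasmid for FLAG-tagged human Arid5a, an RNA-binding protein, with FuGeneHD. The FLAG IL-17 and IgG IL-17 groups were then kept for 3 h with IL-17, an inflammatory cytokine, at 200 ng/mL, and the FLAG medium and IgG medium groups for 3 h in medium without it. RNA was recovered with anti-FLAG or with control mouse IgG1, so the IgG groups carry the plasmid too and measure what the beads and an unrelated antibody retain. Each of the 4 groups had 3 libraries. The labels do not say that replicates were separate cultures, and the spread behind the p-values may thus be technical only. Expression markers of the cell line were not analysed here.

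Total estimated counts ran from 13653400 to 17723100 in FLAG IL-17, from 5365500 to 15837800 in IgG IL-17, from 2402390 to 7563480 in FLAG medium and from 746911 to 6118340 in IgG medium. Depth therefore moved with treatment, and its part in the IL-17 values was not tested. As an alternative, 4 libraries were left out together: IgG IL-17 replicate 1, FLAG medium replicate 1 and IgG medium replicates 1 and 2. They were picked after the data were seen, without a measured criterion, and all but 1 are IgG libraries. Below they are called the 4 libraries that stand apart. Results that change without them are given both ways. A bulk precipitate does not separate less RNA per cell from fewer cells.

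The coordinates of the genes come from the RefSeq annotation of GRCh38.p14. RPPH1, the gene of RNase P RNA, spans chr14:20343071-20343411 and is 341 nt long. RMRP, the gene of RNase MRP RNA, spans chr9:35657750-35658019 and is 270 nt long. RN7SK spans chr6:52995620-52995951 and is 332 nt long. RN7SL1 at chr14:49586580-49586878 and RN7SL2 at chr14:49862551-49862849 are 299 nt each. All 5 are annotated as noncoding RNA genes, so the whole transcript is untranslated.

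The 8 identifiers together took a sizeable share of several libraries. The share of all counts was 7.0%, 12.1% and 8.54% in the FLAG IL-17 replicates and 4.18%, 6.68% and 3.98% in the IgG IL-17 replicates. It was 1.93%, 3.68% and 3.71% in the FLAG medium replicates and 4.39%, 2.76% and 2.12% in the IgG medium replicates. FLAG IL-17 stood above the other 3 groups without overlap, by a narrow margin over IgG IL-17 replicate 2, and the medium groups overlapped each other.

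**Figure D1:**
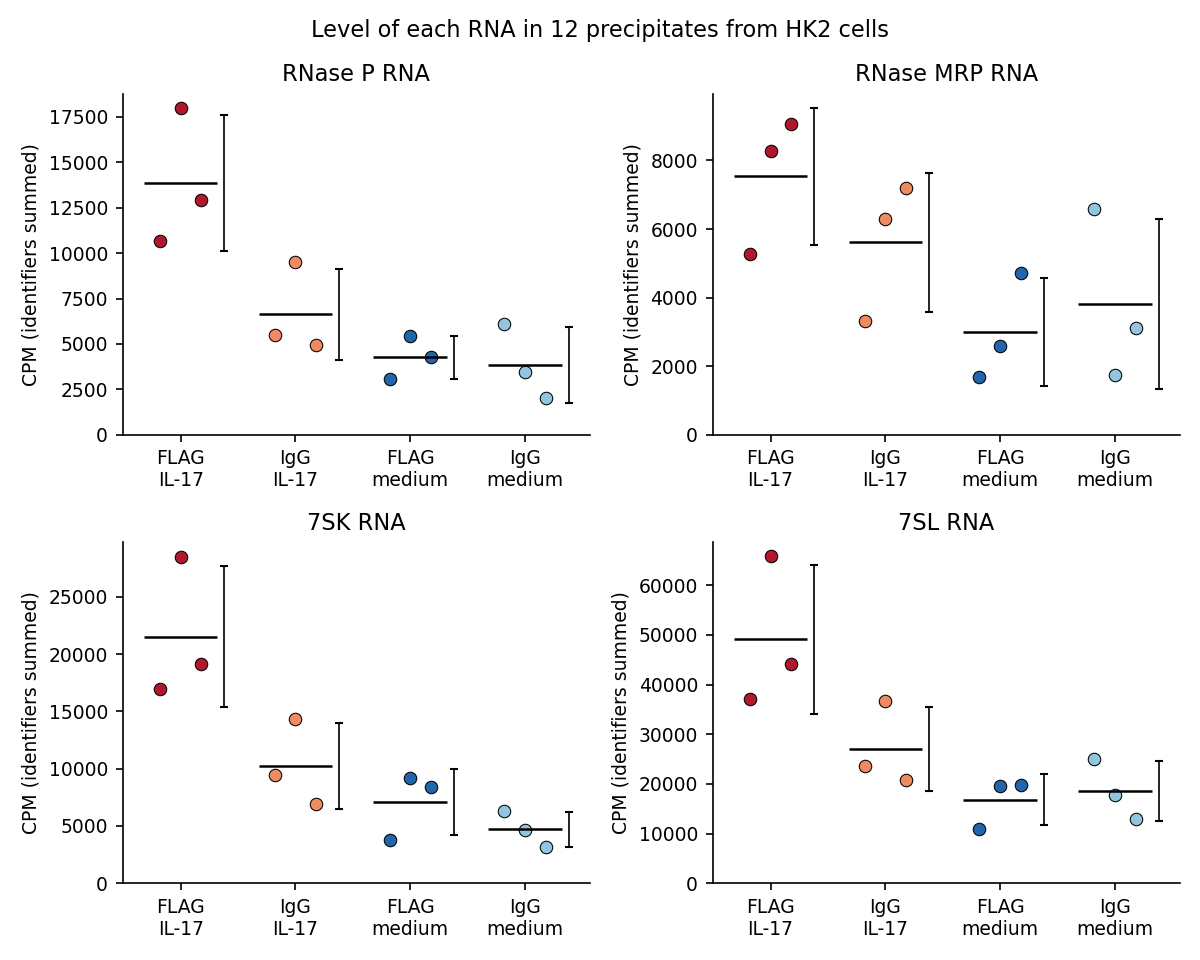
Counts scaled to library size (CPM, linear axis from 0) of RNase P, RNase MRP, 7SK and 7SL RNA, identifiers of 1 RNA summed, in each of the 12 libraries by group; points are libraries, horizontal lines are group means and vertical bars are ± 1 SD (n = 3). All 4 RNAs were highest on average in FLAG IL-17, and in medium the FLAG and IgG points overlapped for each RNA.

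Per length, in TPM, which scales counts to feature length, 7SL RNA was the highest of the 4 RNAs in 12 of 12 libraries and RNase P RNA the lowest in 12 of 12. The TPM of 7SL RNA averaged 35704 ± 11801.5 in FLAG IL-17, 19788 ± 7407 in IgG IL-17, 30595 ± 17413 in FLAG medium and 33092 ± 22295 in IgG medium (SD, n = 3 each). 7SK RNA averaged 12974 ± 4237 TPM in FLAG IL-17, 6319 ± 2743 TPM in IgG IL-17, 10471 ± 7100.42 TPM in FLAG medium and 6638 ± 4482 TPM in IgG medium (SD, n = 3 each). These 2 RNAs kept a gap in every library, whereas 7SK and RNase MRP RNA are neighbours whose order was not fixed. 7SK RNA exceeded RNase MRP RNA in 9 of 12 libraries on the TPM scale. RNase MRP RNA averaged 6825 ± 739 TPM in FLAG IL-17, 4809 ± 214 TPM in IgG IL-17, 6804 ± 2944 TPM in FLAG medium and 7187 ± 1644 TPM in IgG medium (SD, n = 3 each). RNase P RNA averaged 3165 ± 924 TPM in FLAG IL-17, 1639 ± 602 TPM in IgG IL-17, 1837 ± 1089 TPM in FLAG medium and 1456 ± 822 TPM in IgG medium (SD, n = 3 each). The TPM of RNase P RNA is lowered by the length used for ENSG00000259001, described further on. In how many libraries its last place depends on that length was not tested. In counts not divided by length, RNase P RNA exceeded RNase MRP RNA in 8 of 12 libraries. It lay below RNase MRP RNA before any division by length in IgG IL-17 replicate 3, FLAG medium replicate 3 and IgG medium replicates 1 and 3.

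The deposited values of RNase P RNA depended on which identifier was read. ENSG00000277209 had 991, 881 and 546 CPM in FLAG IL-17, 423, 923 and 382 CPM in IgG IL-17, and 0 in all 6 medium libraries. Against 3 counts over each medium group's summed total, its listed mean was at least 4374-fold higher with IL-17 in FLAG and at least 2047-fold higher with IL-17 in IgG. Such bounds cover counting error only, and not how reads were divided between identifiers. With 3 counts taken per library instead, as the mean over the medium libraries, these bounds were at least 1140.3-fold in FLAG and at least 326-fold in IgG. Without the 4 libraries that stand apart the bound in IgG was at least 827-fold. Of all features, ENSG00000277209 alone was listed at 0 in all 6 medium libraries with a mean of at least 100 CPM with IL-17. By the same cutoff, 0 features met the opposite pattern. Below that cutoff it was not alone, since ENSG00000260914.3 was also at 0 in all medium libraries. Lower cutoffs were not counted, and the pattern lies in the values that selected this identifier.

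The other identifier selected for this RNA had counts throughout. ENSG00000259001 had 9682, 17099.7 and 12385 CPM in FLAG IL-17 and 5039.94, 8567 and 4543 CPM in IgG IL-17. It had 3065, 5419 and 4269 CPM in FLAG medium and 6078, 3448 and 1995 CPM in IgG medium. In the medium libraries its estimated counts ran from 4540 to 40990. Its apparent length, given further on, is longer than RPPH1, and whether all its reads came from RNase P RNA was not tested. In the IL-17 libraries ENSG00000277209 took from 4.22% to 9.28% of the RNase P RNA counts in FLAG and from 7.74% to 9.72% in IgG, and in medium it took 0%. The counts of ENSG00000259001 were whole numbers in 6 of 6 medium libraries and in 0 of 6 IL-17 libraries. RSEM, the counting program named in the processing notes, can give fractional counts where it divides reads between features. A whole count does not show that no reads were divided. In IgG medium replicate 2, 7SL1 had a whole count of 67114 beside 41614.1 for 7SL2. Whether the medium and IL-17 libraries were counted with the same annotation or settings is not stated by the labels or processing notes.

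**Figure D2:**
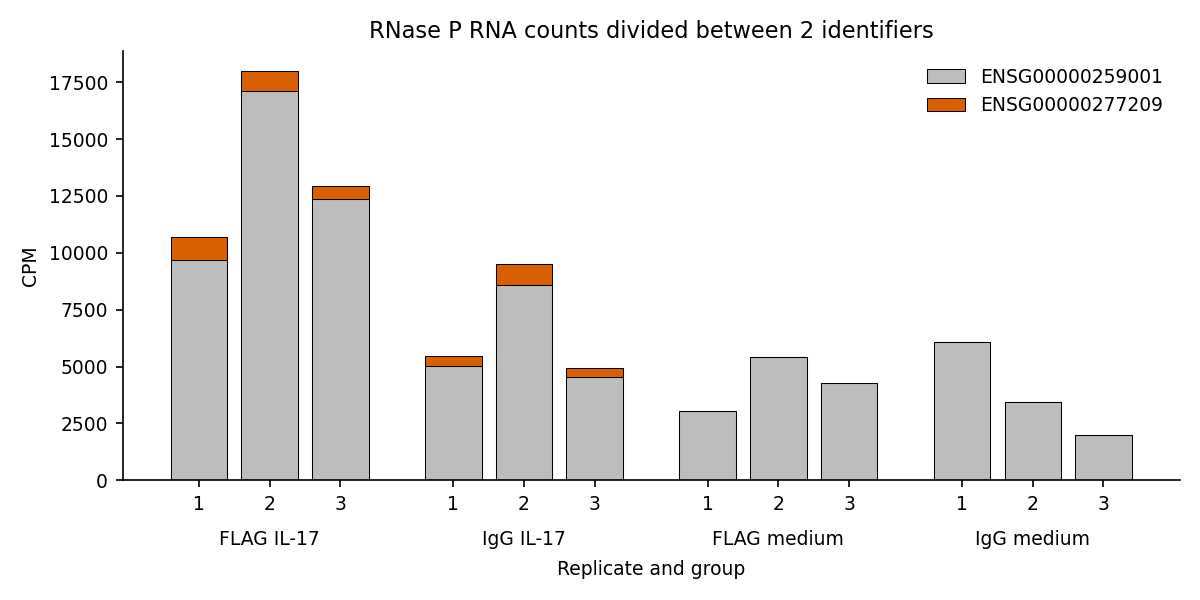
CPM of RNase P RNA in each library, stacked by identifier: ENSG00000259001 and ENSG00000277209. ENSG00000277209 forms a thin segment in the 6 IL-17 libraries and is at 0 in the 6 medium libraries, while ENSG00000259001 is present in all 12.

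With both identifiers summed, which is what RNase P RNA stands for below, no library was at 0. ENSG00000277209 took at most 9.72% of this sum in any library, and ENSG00000259001 the rest. The values below thus rest on ENSG00000259001, whose reads were not shown to come all from RNase P RNA. RNase P RNA had 10672.5, 17981 and 12931 CPM in FLAG IL-17 and 5462.5, 9490 and 4925 CPM in IgG IL-17. It had 3065, 5419 and 4269 CPM in FLAG medium and 6078, 3448 and 1995 CPM in IgG medium. The FLAG groups did not overlap between treatments, and the IgG groups did. The ratio of means, IL-17 over medium, was 3.26 in FLAG and 1.73 in IgG on the CPM scale, against the bounds given above for ENSG00000277209 alone.

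7SK and 7SL RNA also had 2 identifiers each, and their shares also differed by treatment. ENSG00000274012 (7SL2) relative to ENSG00000276168 (7SL1) had a count ratio of 0.912 to 0.968 in FLAG IL-17, 0.896 to 0.931 in IgG IL-17, 0.559 to 0.688 in FLAG medium and 0.620 to 0.698 in IgG medium. The IL-17 and medium libraries did not overlap in this ratio with either antibody. RN7SL1 and RN7SL2 are nearly identical in sequence, so reads are divided between them by estimation and neither gene's own level is certain. ENSG00000202198 took 19.7% to 23.5% of the 7SK RNA counts in FLAG IL-17, 20.3% to 23.3% in IgG IL-17, 27.5% to 50.9% in FLAG medium and 12.1% to 45.6% in IgG medium. The 7SK share was thus narrow with IL-17 and wide in medium, and values of single identifiers below are read beside the summed ones.

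The ratio of estimated count to TPM within a library is proportional to the length that the counting program used for a feature, and it was set relative to 7SL1. RNase MRP RNA, the shortest, stood at 0.724 to 0.805, and ENSG00000274012 (7SL2) at 1.01. The 7SK identifier ENSG00000283293 stood at 1.18 to 1.28 and ENSG00000202198 at 1.2 to 1.31. RNase MRP RNA, 7SL1 and ENSG00000283293 followed the order of their RefSeq lengths in 12 of 12 libraries. ENSG00000277209 stood at 1.22 to 1.26 over the 6 IL-17 libraries. ENSG00000259001 stood at 3.19 to 4.75, longer than RPPH1, so its TPM is lower than its CPM would give for a feature of the RefSeq length. The ratio for 7SL1 relative to the median feature was 0.0720 to 0.0821 in FLAG IL-17, 0.0672 to 0.0923 in IgG IL-17, 0.0558 to 0.0669 in FLAG medium and 0.0516 to 0.0959 in IgG medium.

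**Figure D3:**
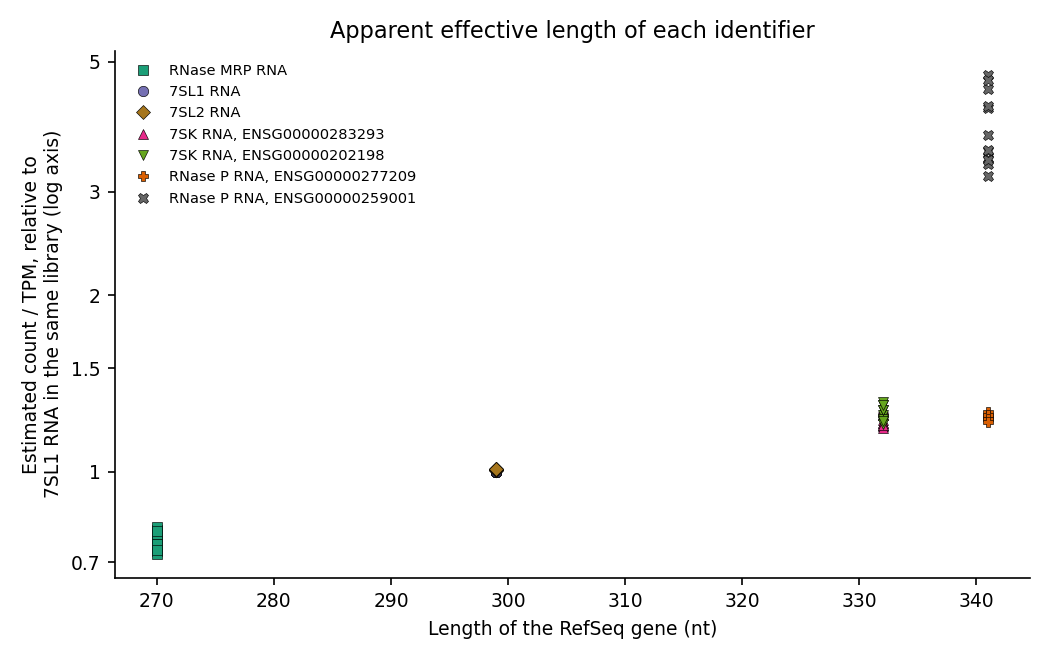
Estimated count divided by TPM, relative to 7SL1 in the same library (log axis), against RefSeq gene length in nt; each point is 1 identifier in 1 library. RNase MRP, 7SL and 7SK RNA and ENSG00000277209 climb with RefSeq length, and ENSG00000259001 lies apart at 3.19 to 4.75; points of the 2 7SL and the 2 7SK identifiers lie over each other.

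The IL-17 effect on the remaining RNAs ran upward throughout on the CPM scale and not on the TPM scale. RNase MRP RNA had 5276, 8286 and 9065 CPM in FLAG IL-17 and 3329, 6292 and 7202 CPM in IgG IL-17. It had 1677, 2585 and 4723 CPM in FLAG medium and 6572, 1755 and 3119 CPM in IgG medium. The FLAG libraries did not overlap between treatments and the IgG libraries did, with IgG medium replicate 1 above 2 of the IgG IL-17 libraries. 7SK RNA, summed, had 16943, 28523 and 19132 CPM in FLAG IL-17 and 9417, 14307.5 and 6919.7 CPM in IgG IL-17. It had 3781, 9171 and 8356 CPM in FLAG medium and 6267, 4623 and 3173 CPM in IgG medium. In CPM, summed 7SK RNA was the only RNA of the 4 with no overlap between treatments under both antibodies. In IgG the lowest IL-17 value of ENSG00000283293 was 5512.96 CPM, against a highest medium value of 5509.39 CPM, and ENSG00000202198 overlapped. In TPM, summed 7SK RNA overlapped between treatments under both antibodies. The share of all features without overlap under both was not counted. 7SL RNA, summed, had 37128.5, 65966 and 44243 CPM in FLAG IL-17 and 23548, 36673 and 20751 CPM in IgG IL-17. It had 10827, 19657 and 19783 CPM in FLAG medium and 24937, 17771 and 12898 CPM in IgG medium. The FLAG libraries of 7SL RNA did not overlap between treatments, and IgG medium replicate 1 lay within the IgG IL-17 values.

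As ratios of mean CPM, IL-17 over medium, RNase MRP RNA stood at 2.52 in FLAG and 1.47 in IgG, 7SK RNA at 3.03 in FLAG and 2.18 in IgG, and 7SL RNA at 2.93 in FLAG and 1.46 in IgG. On the TPM scale the same ratios were 1.0 in FLAG and 0.669 in IgG for RNase MRP RNA, 1.24 in FLAG and 0.952 in IgG for 7SK RNA, and 1.17 in FLAG and 0.598 in IgG for 7SL RNA. RNase P RNA stood at 1.72 in FLAG and 1.13 in IgG on the TPM scale. The direction in IgG thus turned with the scale for 7SK, 7SL and RNase MRP RNA. For RNase P RNA it stayed above 1 only with ENSG00000277209 included: ENSG00000259001 alone stood at 1.58 in IgG on the CPM scale and at 0.895 in IgG on the TPM scale.

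By identifier, the CPM values of 7 of 7 identifiers were higher with IL-17 in FLAG without overlap, where 3.29% of all features were higher without overlap. In IgG this held for 3 of 7, ENSG00000277209, ENSG00000283293 and ENSG00000274012, where 7.21% of all features were. Fitted log2 fold changes of the 6 identifiers with counts in medium ran from 1.45 to 2.46 in FLAG, with a median of 2.08 against -0.29 over all 24040 features. In IgG they ran from 0.20 to 0.99, with a median of 0.59 against 0.18 over all features. The selection of the RNAs used these contrasts, and nothing is read from the counts.

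Enrichment by FLAG over IgG was not the contrast that selected the RNAs, and it was tested. The comparison with IL-17 shares all its libraries with the contrasts that did, so it is not independent of the selection. With IL-17, all 7 identifiers had log2 fold changes above 0, from 0.61 for RNase MRP RNA to 1.36 for ENSG00000259001 of RNase P RNA, but none passed the test. Their median was 1.13, against -0.33 over all features. edgeR called 0 of 7 identifiers, and 0% of all 24040 features, at an adjusted p under 0.05; 0 of 7 had an unadjusted p under 0.05, against 0.566% of all features higher. DESeq2 called 0 of 7, and 0.00433% of all features higher, and gave 1 of 7 an unadjusted p under 0.05, as it did 243 features higher and 1897 lower. Limma on log2(TPM + 1) called 0 of 7 and gave 0 an unadjusted p under 0.05, as it did 4 features higher and 13 lower. ENSG00000259001 had a log2 fold change of 1.36 ± 0.77 (SE; 95% interval -0.21 to 2.94; edgeR adjusted p = 0.923). ENSG00000202198 of 7SK RNA had 1.3 ± 0.66 (SE; 95% interval -0.05 to 2.65; edgeR adjusted p = 0.923). With identifiers summed, the edgeR log2 fold change was 1.31 ± 0.77 for RNase P RNA, 1.35 ± 0.78 for 7SK RNA and 1.12 ± 0.83 for 7SL RNA (SE, n = 3 each). Intervals of this width cover both no enrichment and an enrichment past the point estimate.

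In CPM, 5 of 7 identifiers were higher in FLAG IL-17 than in IgG IL-17 without overlap, where 3.58% of all features were. The exceptions were ENSG00000277209 and RNase MRP RNA, whose groups overlapped. This comparison shares its libraries with the contrasts that selected the RNAs, so the count is not independent of the selection. Both 7SK and both 7SL identifiers are among the 5, so these are not 5 separate RNAs. The gaps were small, and IgG IL-17 replicate 2 set the upper edge of the IgG values for all 5. 7SL1 had 19419.7, 33519.6 and 22832 CPM in FLAG IL-17, against 12420.1, 19041 and 10747 CPM in IgG IL-17. The lowest FLAG library thus lay just above IgG IL-17 replicate 2. ENSG00000283293 of 7SK RNA had 13493, 22904 and 14636 CPM in FLAG IL-17, against 7422, 10979 and 5513 CPM in IgG IL-17, a wider gap in CPM. The set depended on the scale. In TPM the lowest FLAG IL-17 value lay below the highest IgG IL-17 value for 7SL1 (12065 against 13303). The same held for 7SL2 (11237 against 11834) and ENSG00000283293 (6442 against 6571). RNase MRP RNA did not overlap in TPM (6063 against 4962). ENSG00000259001 and ENSG00000202198 stayed without overlap, and ENSG00000277209 overlapped on both scales.

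**Figure D4:**
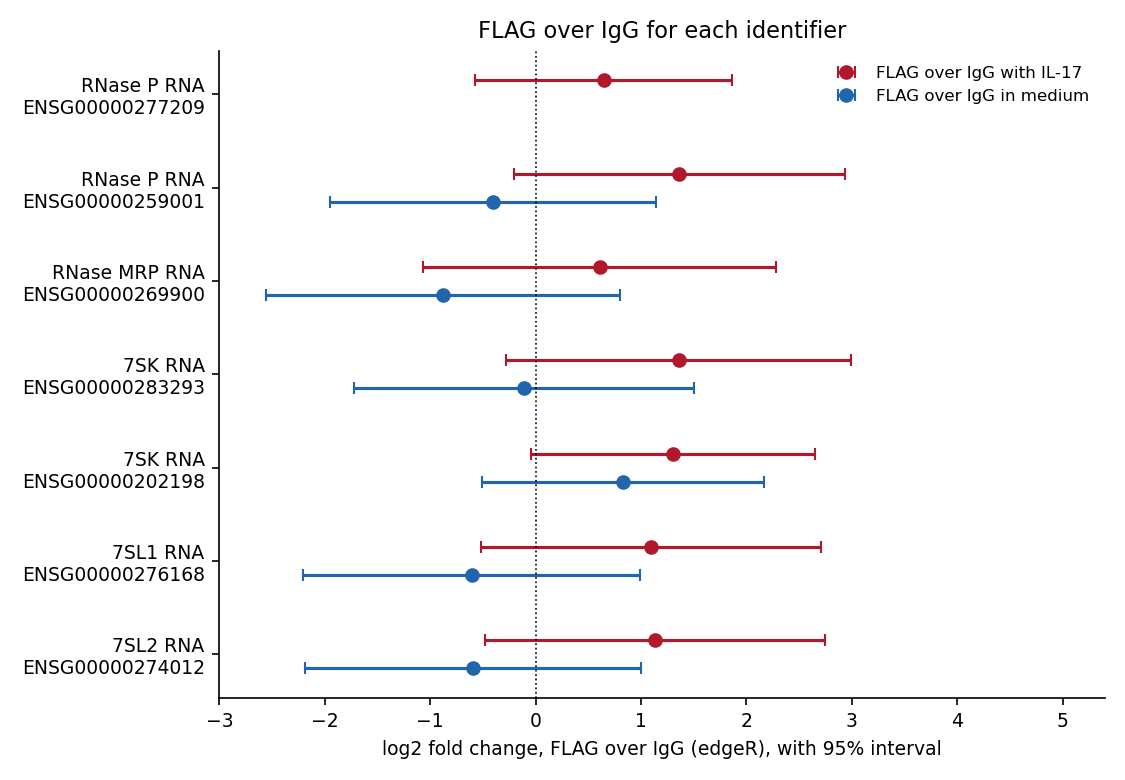
log2 fold change of FLAG over IgG by edgeR for each identifier, with IL-17 and in medium; points are estimates, bars are 95% intervals and the dotted line marks 0. With IL-17 all 7 estimates lie above 0 (0.61 to 1.36) and in medium 5 of 6 lie below it, and every interval includes 0.

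In medium the estimates lay mostly on the other side of 0, and this depended on 1 library and, for some identifiers, on the scaling. Of 6 identifiers with counts, ENSG00000202198 had a log2 fold change of 0.83 and the other 5 ran from -0.88 for RNase MRP RNA to -0.11 for ENSG00000283293, with a median of -0.50 against 0.20 over all features. edgeR called 0 of 6 identifiers and 0% of all features, with a lowest adjusted p of 0.947 among the identifiers. DESeq2 called 0 of 6 and 0.871% of all features higher, and limma on log2(TPM + 1) called 0. Unadjusted, 0 of 6 passed 0.05 by edgeR, DESeq2 or limma on log2(TPM + 1), and 4.17% of all features were higher by edgeR. In CPM, 0 of 7 identifiers were higher in FLAG medium without overlap, against 4.85% of all features. Without IgG medium replicate 1, the shallowest library, the edgeR log2 fold change was 0.68 for ENSG00000259001, 0.27 for RNase MRP RNA, 0.98 for ENSG00000283293, 0.16 for 7SL1 and 0.16 for 7SL2. With all libraries kept and scaling by library size only, it was 0.15 for ENSG00000259001 and 0.43 for ENSG00000283293. RNase MRP RNA, 7SL1 and 7SL2 stayed below 0 with that scaling. No direction is therefore given for FLAG over IgG in medium.

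Averaged over both treatments, 5 of 6 identifiers had log2 fold changes above 0, with a median of 0.38 against -0.06 over all features. edgeR called 0 of 6, and 0% of all features, with 1 of 6 at an unadjusted p under 0.05, against 1.78% of all features higher. That identifier was ENSG00000202198 of 7SK RNA, at 1.06 ± 0.46 (SE; 95% interval 0.12 to 2.01; edgeR adjusted p = 0.992, unadjusted p = 0.0291). Its libraries had 3450.44, 5619 and 4497 CPM in FLAG IL-17 and 1995, 3329 and 1407 CPM in IgG IL-17. They had 1925, 2525 and 3064 CPM in FLAG medium and 758, 2109.66 and 942 CPM in IgG medium, where IgG medium replicate 2 lay within the FLAG medium values. DESeq2 called 0 of 6, and 0.163% of all features higher, with 1 of 6 at an unadjusted p under 0.05 beside 726 features higher and 1459 lower. Limma on log2(TPM + 1) called 0 of 6, with 0 at an unadjusted p under 0.05 beside 171 features higher and 113 lower. Without the 4 libraries that stand apart, edgeR called 2 identifiers, ENSG00000202198 (adjusted p = 0.0353) and ENSG00000283293 (adjusted p = 0.0435), both of 7SK RNA. That fit called 3.12% of all 28872 features higher, 902 in number, and 126 lower, and its median over all features was 0.76, so calls were not particular to 7SK RNA. That fit holds 1 IgG medium library, whose spread is taken from the other groups.

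The change of enrichment with IL-17 is the log2 fold change of FLAG over IgG with IL-17 minus that in medium. It equals the IL-17 effect in FLAG minus that in IgG, the contrasts that selected the RNAs, and is given as a description without a test. It ran from 0.47 for ENSG00000202198 to 1.77 for ENSG00000259001 over the 6 identifiers with counts in medium, with a median of 1.60 against -0.52 over all features. Without IgG medium replicate 1 it was 0.75 for ENSG00000259001, 0.40 for RNase MRP RNA, 0.45 for ENSG00000283293, 0.55 for ENSG00000202198, 1.003 for 7SL1 and 1.04 for 7SL2. Without the 4 libraries that stand apart, the change for ENSG00000259001, RNase MRP RNA and both 7SK identifiers was below 0, at -0.21, -0.12, -0.31 and -0.58. The median over all features was then -2.17, so these values lay above it in both fits.

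Ratios between the RNAs within a library do not change with its total count or with a factor common to all its features. They do change with the feature lengths that enter TPM. They were compared after the values had been seen and are given without a test. 7SK over 7SL RNA, both summed, was 0.456, 0.432 and 0.432 in FLAG IL-17, against 0.400, 0.390 and 0.333 in IgG IL-17. It was 0.349, 0.467 and 0.422 in FLAG medium, against 0.251, 0.260 and 0.246 in IgG medium. FLAG libraries held more 7SK per 7SL RNA than IgG libraries in both treatments without overlap. The geometric mean ratio over both treatments was 1.38-fold higher in FLAG, and 1.37-fold higher from TPM. This pools unlike differences. Group means were 0.440 in FLAG and 0.375 in IgG with IL-17, and 0.413 in FLAG and 0.252 in IgG in medium. The IgG ratio itself was lower in medium than with IL-17 without overlap, and FLAG medium replicate 1 lay within the IgG IL-17 values. Set against 7SL RNA as single features, 0% of all 24040 features, the 7SK identifiers included, were higher in FLAG without overlap in both treatments. With IL-17 alone the share was 0.0957% and in medium alone 4.38%. Single identifiers did not carry this alone: the ratio with ENSG00000283293 overlapped in medium and that with ENSG00000202198 overlapped with IL-17. The shares are therefore no measure of how unusual the summed 7SK ratio is. With IL-17, 7SL RNA itself had a log2 fold change of 1.12 in FLAG over IgG, against a median of -0.33 over all features. Dividing by it lowers the share with IL-17.

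RNase P over 7SL RNA averaged 0.284 ± 0.0103 in FLAG IL-17 and 0.243 ± 0.0142 in IgG IL-17, and 0.258 ± 0.0369 in FLAG medium and 0.197 ± 0.0446 in IgG medium (SD, n = 3 each). These did not overlap with IL-17 on the count scale, overlapped in medium, and overlapped in both treatments from TPM. RNase MRP over 7SL RNA averaged 0.158 ± 0.0418 in FLAG IL-17 and 0.220 ± 0.111 in IgG IL-17, and 0.175 ± 0.0564 in FLAG medium and 0.201 ± 0.0896 in IgG medium (SD, n = 3 each). Its groups overlapped in both treatments. Of the 6 pairs of RNAs, 7SK over 7SL was the only pair without overlap in both.

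**Figure D5:**
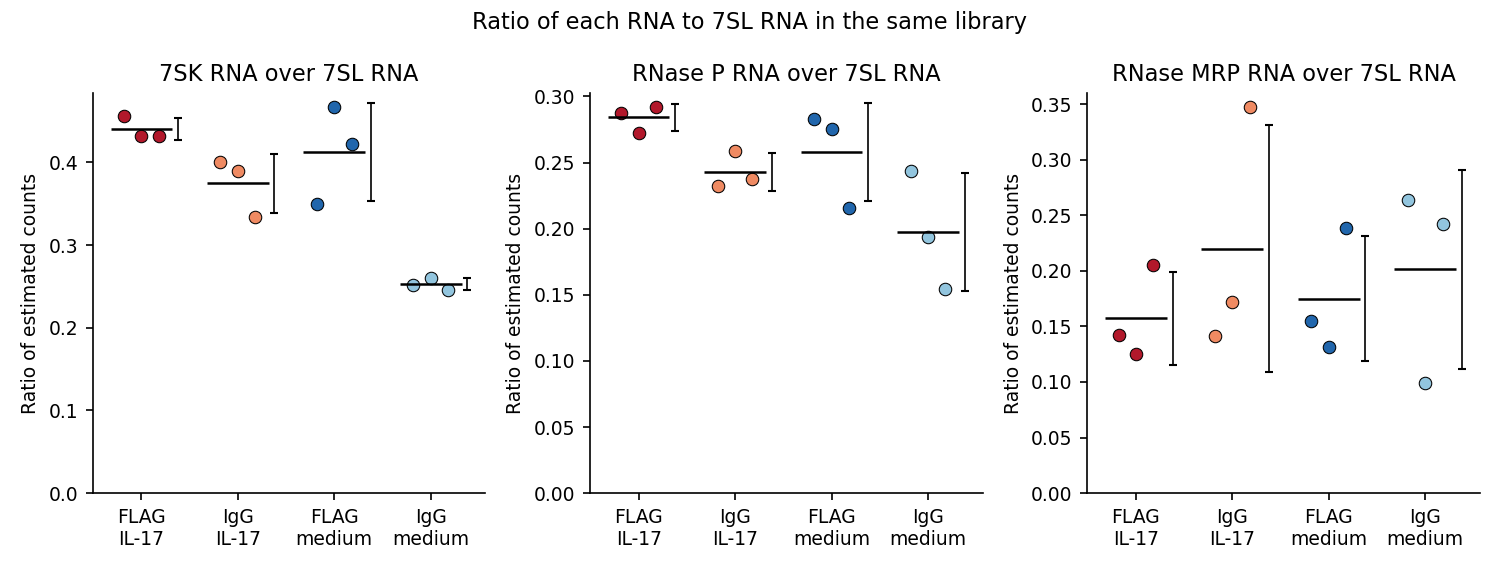
Estimated counts of 7SK, RNase P and RNase MRP RNA divided by those of 7SL RNA in the same library, by group; points are libraries, horizontal lines are group means and vertical bars are ± 1 SD (n = 3). The 7SK ratio lies at 0.432 to 0.456 in FLAG IL-17 against 0.333 to 0.400 in IgG IL-17, and at 0.349 to 0.467 in FLAG medium against 0.246 to 0.260 in IgG medium.

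The features most like these RNAs over the 12 libraries were found by the Pearson correlation of log2(CPM + 1), among 16978 features with a mean of at least 5 CPM in a group. For ENSG00000277209 they were ENSG00000200156.1 (r = 0.986) and ENSG00000276216.1 (r = 0.981). For 7SL1 they were ENSG00000184260.6 (r = 0.955) and ENSG00000278771.1 (r = 0.950). The points share their libraries, depth and treatment, and the values are descriptions. With log2(CPM + 0.1), ENSG00000260914.3 (r = 0.974) replaced ENSG00000276216.1 for ENSG00000277209, and it too was at 0 in all medium libraries.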

How the data were processed

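RNA from FLAG and IgG1 precipitates of HK2 cells was measured in 12 libraries, grouped by their titles. Per the labels' protocols, libraries were made with the SMART-Seq v4 low-input kit. The submitters' processing notes name RSEM 1.3.1 and STAR 2.7.9, with R 4.2.0, DESeq2 1.36.0 and the build GRCh38 (hg38), without roles; annotation and use of strand are not stated there. The authors deposited estimated counts per Ensembl feature, not normalized, of which 18.0% of those above 0 were not whole. The authors' second deposited table, named for FPKM, sums to the same total in each library, as TPM does, and was read as TPM. The log-scale alternatives therefore used TPM.

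Rounded counts passed filterByExpr at a minimum count of 10, TMM gave the scaling, and edgeR 4.0.16 (R 4.3.3) ran its quasi-likelihood test. All 12 libraries shared 1 fit without covariates, and p-values were Benjamini-Hochberg adjusted over 24040 features, with calls at an adjusted p under 0.05. All 7 identifiers with counts passed the filter. The edgeR standard errors were derived from the test, as the absolute log2 fold change over the square root of its F statistic. The 95% intervals used these with a t distribution at the degrees of freedom of the test. The common dispersion was 0.953, so standard errors do not measure the spread of 1 comparison's libraries alone. CPM are counts over the library total. A count of 0 in 1 library allows 0.169 to 4.02 CPM, from 3 counts. Folds against a group at 0 used 3 counts over the group's summed total, with 3 counts per library as an alternative. Both cover counting error only. Apparent length used at least 20 counts and 0.2 TPM. Alternatives were RLE factors, library size only, no filter, only the compared groups, a replicate block, summed identifiers, leaving out each library, DESeq2 1.42.0, and limma 3.58.1 on log2 TPM with pseudocounts of 1 and 0.1.

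Members and lists were chosen with earlier results of these data known. Every member is named, and for likeness the 2 features with the highest correlation that had no counts identical to a feature already taken. Lists of partner proteins, polymerase III transcription factors and cell markers were not analysed here, since 0 of 60708 identifiers matched the RefSeq table by Ensembl identifier. No sequence is printed, since 0 of the 5 genes had an entry in the promoter table used here.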

Additional observations from a re-analysis of the deposited data

How the results depend on the processing

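With IL-17, FLAG over IgG stayed above 0 for all 7 identifiers under every alternative run, and 0 of 7 were called under each of them. Some values were small against their standard errors. RNase MRP RNA stood at 0.10 ± 0.72 (SE) without FLAG IL-17 replicate 3. ENSG00000277209 stood at 0.30 ± 0.65 (SE) without IgG IL-17 replicate 1. In medium the log2 fold change turned above 0 with library size only for ENSG00000259001 (0.15, also 0.15 for summed RNase P RNA) and ENSG00000283293 (0.43). It did so by limma on log2(TPM + 1) and on log2(TPM + 0.1) for ENSG00000259001 (0.33 and 0.33) and ENSG00000283293 (0.45 and 0.45), and for ENSG00000283293 with only the compared groups (0.12) and with 7SK identifiers summed (0.16). Leaving out 1 library gave ranges in medium of -0.73 to 0.68 for ENSG00000259001, -1.50 to 0.27 for RNase MRP RNA, -0.40 to 0.98 for ENSG00000283293, -0.86 to 0.16 for 7SL1 and -0.88 to 0.16 for 7SL2. Summed, these ranges were -0.73 to 0.68 for RNase P RNA, -0.12 to 0.92 for 7SK RNA and -0.85 to 0.16 for 7SL RNA. On leaving out 1 library, each value above 0 for RNase P, RNase MRP and 7SL RNA came without IgG medium replicate 1, the shallowest library. ENSG00000283293 also stood at 0.34 without FLAG medium replicate 1. Summed 7SK RNA was below 0 on leaving out FLAG medium replicate 3 (-0.12) or IgG medium replicate 2 (-0.019) or 3 (-0.11).

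Without the 4 libraries that stand apart, chosen after seeing the data, the medium values were 1.27 for ENSG00000259001, 0.31 for RNase MRP RNA, 1.42 for ENSG00000283293, 0.65 for 7SL1, 0.61 for 7SL2, 1.28 for summed RNase P RNA and 0.64 for summed 7SL RNA, against a median of 1.60 over all features. The change of enrichment then was -0.21, -0.12, -0.31 and -0.58 for ENSG00000259001, RNase MRP RNA, ENSG00000283293 and ENSG00000202198, -0.27 for summed RNase P RNA and -0.39 for summed 7SK RNA, against a median of -2.17 over all features. By limma, ENSG00000202198 stood at -0.12 on both TPM scales. The number of identifiers called for the averaged enrichment was 2, beside 902 of 28872 features called higher and 126 lower, against 0 with all libraries. For RNase MRP RNA the averaged value of -0.14 was 0.039 with library size only, 0.17 by limma on both TPM scales, 0.26 without the 4 libraries, and from -0.51 to 0.47 leaving out 1 library.

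The fold of the listed values of ENSG00000277209 was at least 4374 in FLAG and at least 2047 in IgG, for counting error only. Leaving out 1 library moved it between 2342 and 5079 in FLAG and between 873 and 2392 in IgG, and without the 4 libraries the IgG bound was 827, since it scales with the medium counts left. A floor of 3 counts per library, chosen after seeing the data, gave 1140.3 in FLAG and 326 in IgG. Summed identifiers gave 3.26 in FLAG and 1.73 in IgG.

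The replicate numbers did not pair the libraries throughout. Of 18 same-numbered pairs, 8 correlated above 0.1 in their deviations (range -0.149 to 0.441), and 6 of 12 libraries correlated best with their own number. The replicate 3 libraries did go together: every pair among them lay above 0.1, from 0.132 to 0.402. Each correlated best with another replicate 3 library. Pairs of the other replicate numbers ran from -0.149 to 0.441. What the replicate 3 libraries share was not tested. With the replicate number as a block for all libraries, edgeR called 0 identifiers in each of the 3 tested comparisons. Only summed 7SK RNA in medium changed sign, to -0.021. Causes of the shifts were not tested. With 3 libraries a group, standard errors of 0.59 to 0.81 for enrichment with IL-17 limit what could be called. Partner protein lists were not run, and RLE factors, TMM and the low-count filter do not enter the fold of ENSG00000277209.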
